A study of Mus musculus with 1646 samples.

Results

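The chemokine genes followed here are the 9 CXC ligands *Cxcl1*, *Cxcl2*, *Cxcl5*, *Cxcl9*, *Cxcl10*, *Cxcl12*, *Cxcl13*, *Cxcl14* and *Cxcl16*, together with the CX3C ligand *Cx3cl1*. They were chosen by name, as the rows of the colon count table whose Ensembl identifier carries one of these symbols in GENCODE vM21, and make up 10 of the 46517 genes of the table. All 10 had counts in the colon, from 188 counts in 13 cells for *Cxcl2* to 614271 counts in 1615 cells for *Cxcl12*.

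Chemokines are small secreted proteins that bind G protein-coupled receptors and direct the movement of leukocytes and other cells along gradients held on matrix proteoglycans. Ligands with a glutamate-leucine-arginine motif before the first cysteines, here *Cxcl1*, *Cxcl2* and *Cxcl5*, attract neutrophils through *Cxcr2*, whereas *Cxcl9* and *Cxcl10* are induced by interferon and attract T cells through *Cxcr3*. *Cxcl12*, *Cxcl13* and *Cxcl14* are made by resting tissue and shape homeostatic traffic, and *Cxcl16* and *Cx3cl1* are made as membrane-bound proteins that can be shed. Atypical receptors such as *Ackr3* bind chemokines without classical signaling and remove them from the tissue.

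The study profiled mesenchymal cells of the mouse colon by SmartSeq2, in which a sorted cell gives 1 full-length cDNA library without molecular identifiers. Flow cytometry gave CD31-negative cells from male mice, 10 to 20 weeks old, of 4 reporter strains whose fluorescent protein is driven by the promoter of *Pdgfrb* (PdgfrbGFP, 761 cells on 4 plates), *Acta2* (Acta2GFP, 567 cells on 2 plates), *Pdgfra* (PdgfraGFP, 227 cells on 2 plates) or *Cspg4* (Cspg4dsRED, 91 cells on 1 plate). The labels give no treatment, and elastase was added to the digestion for the Acta2GFP line only. The labels place each of the 1646 cells in 1 of 8 clusters. Fibroblasts comprised cluster 7 (223 cells, *Tnc*- *Cd34*+, placed by the study at the crypt base), cluster 5 (425 cells, *Tnc*- *Cd34*+), cluster 1 (483 cells, *Tnc*+ *Cd34*+), cluster 6 (45 cells, *Tnc*+ with low *Cd34*) and cluster 2 (131 cells, *Tnc*+ *Cd34*-, placed at the crypt apex). Mural cells comprised pericytes (cluster 4, 142 cells), vascular smooth muscle cells (SMC, cluster 3, 141 cells) and interstitial SMC (cluster 8, 56 cells).

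Of the marker lists, the apex and pericyte genes were highest in the clusters named for them. The 5 listed apex genes summed to 3882 counts per 500000 in cluster 2 and to 585 in cluster 1, the next highest. The 4 pericyte genes summed to 4270 in cluster 4 and to 914 in cluster 3. Cluster 6, named for low *Cd34*, had 30.2 counts per 500000 of *Cd34*, no more than the 41.3 of the *Cd34*- cluster 2 (log2 fold change -0.74, adjusted p = 0.690). It also had 963 of the 4 SMC genes (489 and 1437), against means of 49.3 to 200.2 in the other fibroblast clusters, 224 of the 4 mural genes and 207 of the 4 pericyte genes. In cluster 2 the 2 interstitial SMC genes summed to 316 (1809 in cluster 8) and the 2 genes of interstitial cells of Cajal to 171, against 0.970 to 27.4 in the other fibroblast clusters and 292 and 295 in clusters 3 and 4. Of the latter pair *Ano1* was higher in cluster 2 than in clusters 1, 5 and 7 (log2 fold change 6.89, adjusted p = 0.000655), as was *Prox1* of the 2 lymphatic endothelial genes (5.92, 0.00257), while *Kit* (0.96, 0.841) and *Lyve1* (0.11, 0.991) missed the threshold, and the part of such cells in the levels of cluster 2 was not tested. The 7 listed immune genes summed to between 2.83 and 17.6 counts per 500000 in all clusters, and the 5 endothelial genes to 35.5 in the PdgfrbGFP pericytes and 81.2 in the Cspg4dsRED pericytes, against means of 8.98 to 13.8 in the other clusters. A cell held 47598 to 1494292 gene counts, with a median of 248628. Levels are given as counts per 500000, averaged over the cells of a cluster within a line and then over the lines with at least 10 such cells (mean ± SD, n lines). The labels name no mice, so a line stands for 1 sample, and p-values measure the spread between lines. Within plates, the rank of a cell among those of its cluster was compared with the mean count of the wells that shared its plate row or column. Mean Spearman's rho over plates was 0.0820 for *Cxcl12*, 0.323 for *Cxcl10* and between these for the other members with a value, against 0.279 for *Acta2* and 0.254 for *Myh11*, and the part of neighbouring wells in the low counts was not tested.

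**Figure D1:**
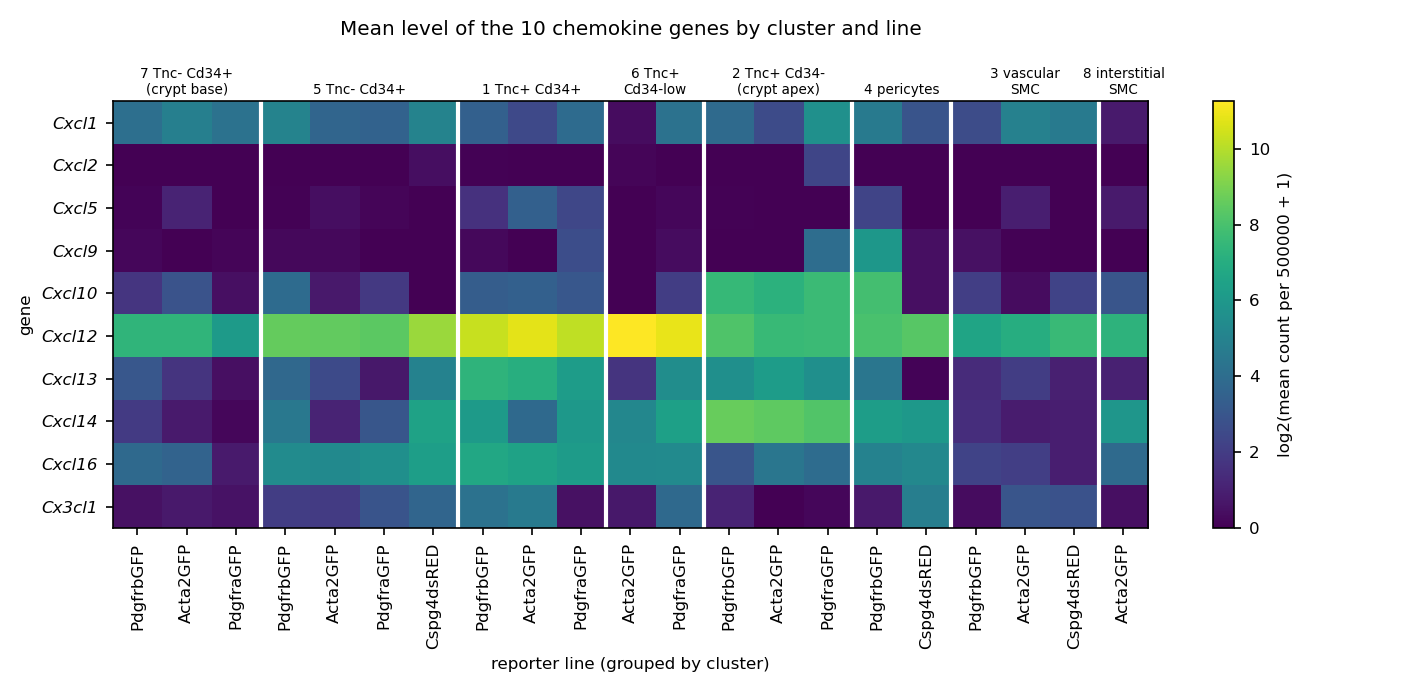
Mean level of each of the 10 genes (vertical axis) in each cluster and reporter line with at least 10 cells (horizontal axis), as log2(mean count per 500000 + 1) in color. *Cxcl12* is high in clusters 1 and 6 of each line shown, *Cxcl14* stands out in cluster 2, *Cxcl10* in cluster 2 and in the PdgfrbGFP pericytes, and *Cxcl9* in the latter.

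Across all cells, *Cxcl12* was the only one of the 10 genes detected in nearly every cell (98.1%). *Cxcl16*, *Cxcl13* and *Cxcl14* had a count in 63.2%, 50.8% and 50.4% of cells, *Cxcl1* in 32.4%, *Cxcl10* in 29.7%, *Cx3cl1* in 19.3%, *Cxcl9* in 8.08%, *Cxcl5* in 5.53% and *Cxcl2* in 0.790%. Most of these detections were low. At least 100 counts were found in 59.4% of cells for *Cxcl12*, in 9.60% for *Cxcl16*, in 8.63% for *Cxcl14*, in 7.29% for *Cxcl13* and in 3.34% or fewer for the other 6 genes. The tenth of cells with the most counts, 165 cells, held 41.7% of all *Cxcl12* counts, but 78.4% of those of *Cxcl16*, 88.6% of those of *Cxcl14* and 91.0% to 98.0% of those of *Cxcl13*, *Cxcl1*, *Cxcl10* and *Cx3cl1*, with the cells ranked for each gene on its own. *Cxcl9*, *Cxcl5* and *Cxcl2* were detected in 133, 91 and 13 cells, fewer than these 165. Per kilobase of exon, the highest cluster means were 264 counts per 500000 for *Cxcl12* in cluster 6, 190 for *Cxcl14* in cluster 2, 106 for *Cxcl13* in cluster 1, 79.8 for *Cxcl10* in cluster 2, 29.4 for *Cxcl16* in cluster 1 and 12.2 for *Cxcl1* in cluster 2.

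**Figure D2:**
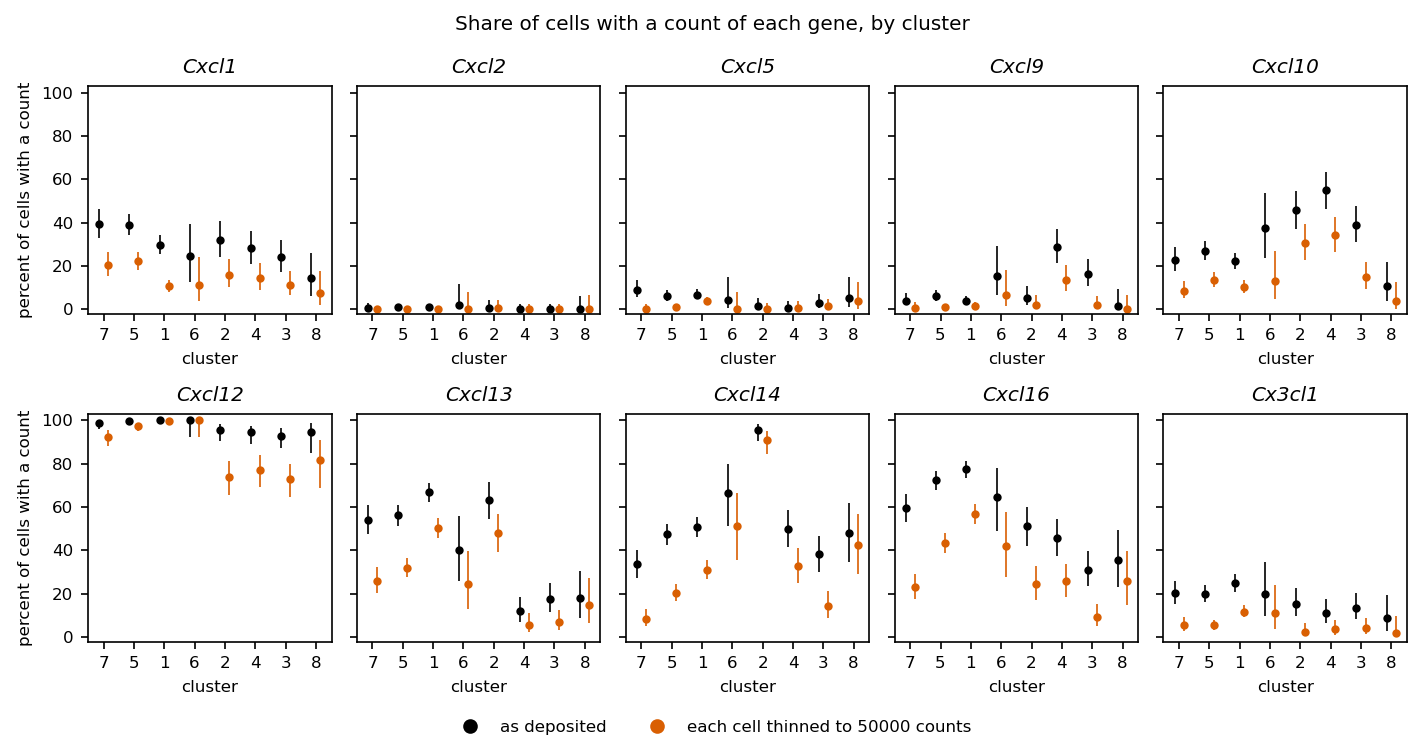
Percent of the cells of each cluster (horizontal axis) with a count of each gene, as deposited (black) and after each cell was thinned to 50000 counts (orange), with 95% Clopper-Pearson intervals that cover counting error only. Cluster 2 holds the highest share for *Cxcl14* (95.4% as deposited, 90.8% thinned) and pericytes the highest for *Cxcl9* (28.9% and 13.6%).

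*Cxcl12* (ENSMUSG00000061353, chr6:117168535-117181367 of GRCm38, plus strand), the ligand of *Cxcr4* and *Ackr3* that retains leukocytes and progenitors in tissue, was the most abundant of the 10 genes and higher in fibroblasts. Fibroblasts of the PdgfrbGFP line had 728 counts per 500000, those of Acta2GFP 840, of PdgfraGFP 702 and of Cspg4dsRED 805. Mural cells had 185 in PdgfrbGFP, 151 in Acta2GFP and 261 in Cspg4dsRED. A *Cxcl12* count was found in 92.9% to 94.6% of the cells of the mural clusters and in 95.4% to 100% of those of the fibroblast clusters. For members found in fewer cells, sums over cells cannot tell fewer cells with the gene from less RNA per cell. By line means of *Cxcl12* the groups did not overlap, and the difference passed the test (log2 fold change 2.04, SE 0.274, adjusted p = 0.00286, edgeR). *Cxcl12* and *Cxcl13* were the 2 members called of the 9 that could be tested between fibroblasts and mural cells, where 6.57% of all 19173 tested genes were called. Both were also called with the line as a block, in which the number of all genes called was 590 in place of 1259.

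Among the fibroblasts, *Cxcl12* differed strongly by cluster. By line means it was lowest in cluster 7, with 164 counts per 500000 in PdgfrbGFP, 163 in Acta2GFP and 70.0 in PdgfraGFP. Cluster 5 had 341 in PdgfraGFP, 370 in Acta2GFP and 379 in PdgfrbGFP, and 757 in the 13 Cspg4dsRED cells. Cluster 1 had 1258 in PdgfrbGFP, 1751 in Acta2GFP and 1154 in PdgfraGFP. Cluster 6, the cluster with SMC genes beside its fibroblast genes, was the highest, with 2438 in Acta2GFP (10 cells) and 1882 in PdgfraGFP (26 cells), and the part of cells of another type in it was not tested. Over lines with at least 10 cells, the ranges of clusters 7, 5, 1 and 6 did not overlap. The 9 PdgfrbGFP cells of cluster 6, however, had 1598, below cluster 1 of Acta2GFP, and by plate cluster 1 reached 1886 where cluster 6 had 1843. By contrast cluster 2 fell back to 284, 189 and 202 in PdgfrbGFP, Acta2GFP and PdgfraGFP, above cluster 7 and below cluster 5. Pericytes had 291 ± 40.7 (n = 2), interstitial SMC 156 (n = 1) and vascular SMC 140 ± 52.7 (n = 3), and the ranges of cluster 4 and cluster 2 overlapped, as did those of clusters 8 and 3 and of clusters 3 and 7.

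Across the 5 fibroblast clusters, 5 of the 10 genes passed the F test, against 9.31% of all genes. These were *Cxcl12* (adjusted p = 8.00e-05), *Cxcl14* (0.00361), *Cxcl10* (0.0104), *Cxcl16* (0.0256) and *Cxcl5* (0.0285). In the fit with a term for the line, *Cxcl16* missed the threshold (adjusted p = 0.0745) and *Cxcl13* passed it (0.0253, against 0.126 without the block). Without the Acta2GFP line, only *Cxcl12* was called of the 10. *Cxcl5*, *Cxcl10* and *Cxcl16* were lost without the PdgfrbGFP line (adjusted p = 0.166, 0.0813 and 0.233), and *Cxcl5*, *Cxcl10* and *Cxcl14* without the PdgfraGFP line (0.122, 0.119 and 0.0545), so that *Cxcl12* was the one member called whichever line was left out. *Cx3cl1* was gained without the PdgfraGFP line (0.0490) and *Cxcl13* without the Cspg4dsRED line (0.0186). The 5 other adjusted p-values were 0.0534 for *Cx3cl1*, 0.106 for *Cxcl2*, 0.126 for *Cxcl13*, 0.168 for *Cxcl9* and 0.877 for *Cxcl1*. The authors drew the clusters from the same counts, so that no comparison between clusters is independent of how the cells were grouped.

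Between cluster 7 and cluster 1, 2 of the 10 members were called, where 0.909% of all genes were, and both were lower in cluster 7. *Cxcl12* had a log2 fold change of -3.08 (SE 0.409, adjusted p = 0.00127) and *Cxcl16* one of -3.65 (SE 0.780, adjusted p = 0.0371). In the blocked fit *Cxcl16* missed the threshold (adjusted p = 0.0695), while *Cxcl13* (log2 fold change -5.81, adjusted p = 0.0435) and *Cxcl14* (-4.99, 0.0171) passed it. The number of all genes called rose from 172 to 276 under the block. Without the Acta2GFP line neither member was called, at log2 fold changes of -3.04 for *Cxcl12* (adjusted p = 0.0691) and -4.09 for *Cxcl16* (0.449). *Cxcl16* was also lost without the PdgfrbGFP line (-3.93, adjusted p = 0.332), and *Cxcl13* was gained without the Cspg4dsRED line (-5.41, adjusted p = 0.0430). Between clusters 6 and 2, *Cxcl12* was the only member called (cluster 6 against cluster 2, log2 fold change 2.88, SE 0.427, adjusted p = 0.00246), where 2.10% of all genes were called and the median gene had a log2 fold change of -0.22. Without the Acta2GFP line, which leaves cluster 6 with 1 sample that is assumed to vary like the others, *Cxcl12* had a log2 fold change of 2.29 and was not called (adjusted p = 0.163). Without the Cspg4dsRED line *Cxcl10* was called too, as lower in cluster 6 (-6.95, adjusted p = 0.0272).

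The signaling receptor *Cxcr4* had 2 counts in 1 of the 1646 cells, whereas the scavenging receptor *Ackr3* was detected in 93.4% of cells. *Ackr3* had 702 ± 60.5 counts per 500000 in cluster 7 (n = 3 lines), 253 ± 82.9 in cluster 5 (n = 4), 192 ± 5.83 in cluster 1 (n = 3), 19.2 ± 3.62 in cluster 6 (n = 2) and 121 in cluster 2 (87.7 to 152, n = 3). Its order over clusters 7, 5, 1 and 6 was the reverse of that of *Cxcl12*. *Ackr3* was higher in cluster 7 than in cluster 1 (log2 fold change 1.94, adjusted p = 0.00209), lower in cluster 6 than in cluster 2 (-2.96, adjusted p = 0.000348) and lower in cluster 2 than in clusters 1, 5 and 7 (-1.26, adjusted p = 0.00216). Over the 21 means of a cluster and a line, log2 levels of *Cxcl12* and *Ackr3* had a Pearson's r of -0.65 and a Spearman's rho of -0.55, as a description, since the points share plates and lines. Across the single cells of 1 cluster and line, rho was negative in all 8 sets of clusters 7, 5 and 1 (-0.27 to -0.02) and in 4 of the 8 sets of clusters 2, 4, 3 and 8 (-0.11 to 0.26).

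**Figure D3:**
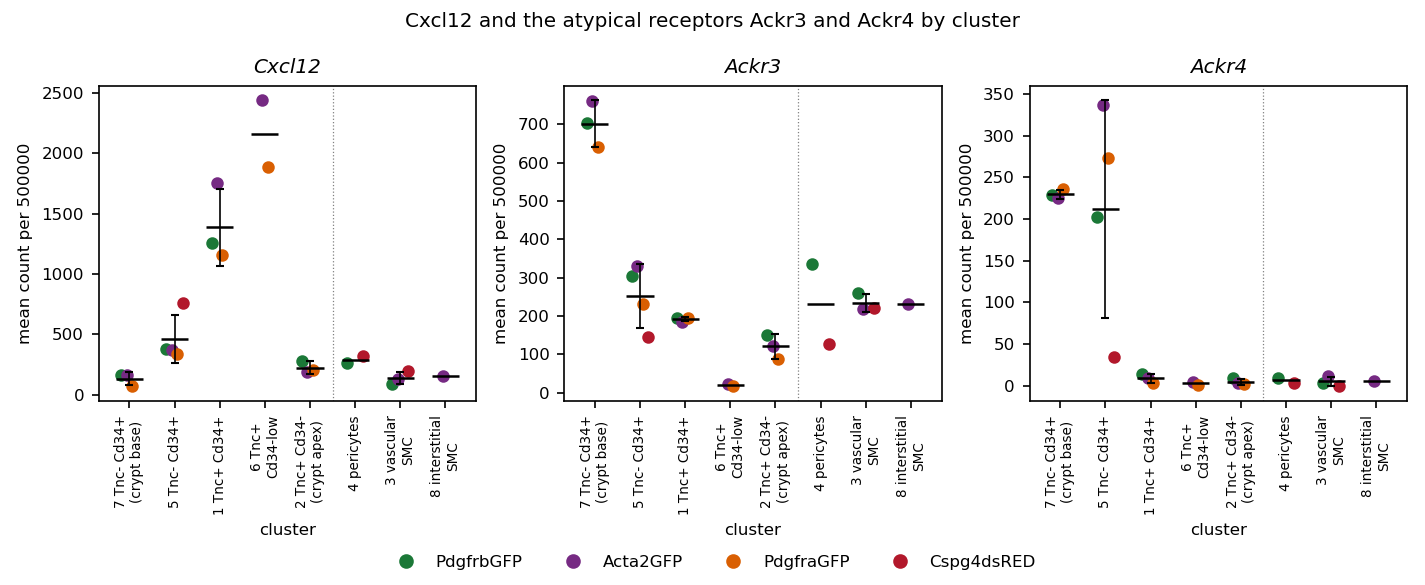
Mean count per 500000 of *Cxcl12*, *Ackr3* and *Ackr4* (vertical axes) by cluster (horizontal axes). Points are reporter lines with at least 10 cells, bars are means and error bars are SD where 3 or more lines contribute. *Cxcl12* climbs from cluster 7 (132) to cluster 6 (2160), while *Ackr3* drops from 702 to 19.2 over the same clusters.

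Of the other atypical receptors, *Ackr2* and *Ackr1* were highest in cluster 7, and *Ackr4* was high in clusters 7 and 5. *Ackr4*, which scavenges CC chemokines, had 228, 225 and 236 counts per 500000 in PdgfrbGFP, Acta2GFP and PdgfraGFP in cluster 7. In cluster 5 it had 202, 337 and 274 in these lines and 34.1 in Cspg4dsRED, and it had a mean of at most 8.79 in the other 6 clusters. *Ackr2*, another scavenger of CC chemokines, had 74.8 to 93.5 in the 3 lines of cluster 7 and *Ackr1*, which also binds *Cxcl1* and *Cxcl5*, had 26.7 ± 6.11. *Ccrl2* was instead highest in vascular SMC (135 ± 9.78). Of the 12 receptors listed, 8 were tested in fibroblasts against mural cells, of which *Ackr2* (log2 fold change 5.17) and *Ackr4* (4.23) were higher and *Ccrl2* (-3.04) was lower (6.57% of all genes were called). In cluster 7 against cluster 1, *Ackr3* and *Ackr4* (5.00, adjusted p = 0.0123) were the 2 of 8 called, where 0.909% of all genes were, and both were higher. *Cxcr1* and *Cxcr3* had 0 counts in 1646 cells (Clopper-Pearson limit 0.224% of cells with a count), and *Cxcr6* had 4 counts in 2 cells. *Cxcr2*, *Cxcr5* and *Cx3cr1* had 539, 537 and 464 counts in all, in 17.3%, 8.63% and 7.11% of cells. Receptors through which these ligands attract leukocytes were thus low or at 0 in level. The study had removed cells with neither *Pdgfra* nor *Pdgfrb* and cells with immune signatures, so that leukocytes were left out by design.

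*Cxcl16* (ENSMUSG00000018920, chr11:70453983-70459984, minus strand), a transmembrane chemokine for *Cxcr6*-bearing lymphocytes, had its highest level in cluster 1. Cluster 1 had 106 counts per 500000 in PdgfrbGFP, 88.0 in Acta2GFP and 72.2 in PdgfraGFP. Cluster 5 had 51.8 ± 18.2 (n = 4), cluster 6 40.2 (39.6 and 40.8), cluster 2 14.1 ± 6.99 (n = 3) and cluster 7 8.35 ± 6.70 (n = 3). The ranges of clusters 1 and 5 overlapped through the Cspg4dsRED cells of cluster 5 (78.6). Over the 21 means, log2 levels of *Cxcl16* and *Cxcl12* had r = 0.78 and rho = 0.86, where r of *Cxcl12* with the other members ran from -0.26 (*Cxcl1*) to 0.53 (*Cxcl13*). Fibroblasts had 42.9 to 68.0 over 4 lines and mural cells 9.74 to 19.7 over 3 lines. These ranges did not overlap, but the difference missed the threshold (log2 fold change 1.18, SE 0.517, adjusted p = 0.238) and passed it with sums per plate (1.80, adjusted p = 0.0167) and with means per cell in limma (1.83, adjusted p = 0.0254). Exons of *Cxcl16* overlap *Zmynd15* on the other strand, and counting was not stated to use strand. *Zmynd15* had 23.4 ± 6.67 counts per 500000 in cluster 1, 9.32 ± 1.41 in cluster 5, 1.29 ± 0.954 in cluster 7 and 0 to 0.401 in cluster 3. Among these clusters, both genes fell in the order of clusters 1, 5, 7 and 3. In clusters 6, 2, 4 and 8, *Zmynd15* had a count in 26.7%, 24.4%, 21.8% and 5.36% of cells. *Cxcl16* had one in 64.4%, 51.1%, 45.8% and 35.7% of them. Counts of this pair cannot be told apart if counting ignored strand, and its part in the *Cxcl16* values was not tested.

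*Cxcl13* (ENSMUSG00000023078, chr5:95956951-95961068, plus strand), the B cell attractant of lymphoid follicles, was higher in fibroblasts, with its highest mean in cluster 1. Fibroblasts of the PdgfrbGFP line had 74.2 counts per 500000, those of Acta2GFP 55.8, of PdgfraGFP 38.3 and of Cspg4dsRED 86.0. Mural cells had 12.2, 1.78 and 0.525 in PdgfrbGFP, Acta2GFP and Cspg4dsRED. Without the highest cell of each group, the Cspg4dsRED fibroblasts had 47.2 and the PdgfrbGFP mural cells 3.38. All fibroblast values lay above all mural values (log2 fold change 4.93, SE 0.616, adjusted p = 0.00211). Cluster 1 had 159 in PdgfrbGFP, 131 in Acta2GFP and 74.0 in PdgfraGFP, and cluster 2 had 47.1, 72.8 and 47.5. By line these means did not overlap, but on 1 PdgfraGFP plate cluster 2 had 35.3 and cluster 1 25.7. The ranges of clusters 6 (23.2), 5 (12.4), 4 (10.1), 7 (3.31) and 3 (1.90) overlapped one with the next. Within cluster 1, 98 of 483 cells (20.3%) had at least 100 counts and the median cell had 14.6, 3.23 and 0 counts per 500000 in PdgfrbGFP, Acta2GFP and PdgfraGFP, against 12.6, 30.1 and 0 in cluster 2, so that cluster 1 did not lead by the median. The 4 lymphoid stroma genes listed (*Ccl19*, *Ccl21a*, *Madcam1*, *Cr2*) summed to 0.958 to 14.6 counts per 500000 in all clusters.

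*Cxcl14* (ENSMUSG00000021508, chr13:56288643-56296551, minus strand), a homeostatic chemokine of epithelia and stroma, was highest in the apex fibroblasts. Cluster 2 had 396 counts per 500000 in PdgfrbGFP, 354 in Acta2GFP and 292 in PdgfraGFP. No other cluster and line with at least 10 cells passed 89.4, and cluster 7 had 2.72, 0.749 and 0.135. Single plates overlapped, however: the 2 PdgfraGFP plates had 80.8 and 468 in cluster 2 (25 and 30 cells), and the 2 PdgfrbGFP plates that also held pericytes had 196 and 240 in cluster 1 (19 and 12 cells). The median cell of cluster 2 had 411, 316 and 160 in the 3 lines, so that *Cxcl14*, like *Cxcl12*, was carried by most cells of its cluster. In cluster 2 against clusters 1, 5 and 7, *Cxcl14* had a log2 fold change of 5.19 (SE 0.764, adjusted p = 0.000359). It was called under each of the 11 alternatives. Among the mural cells, *Cxcl14* had 74.9 counts per 500000 in the PdgfrbGFP and 64.0 in the Cspg4dsRED pericytes and 59.6 in the interstitial SMC of Acta2GFP, against lower levels in vascular SMC (1.79, 0.810 and 0.934 in PdgfrbGFP, Acta2GFP and Cspg4dsRED). The interstitial SMC level came from 1 of the 2 Acta2GFP plates, with 76.3 in 40 cells, whereas the other had 3.98 in 12 cells, and 0.400 without the highest of them. *Cxcl14* was the only member called of 9 tested in both comparisons, with log2 fold changes of 5.77 for pericytes (SE 1.02, adjusted p = 0.0276, where 0.668% of all genes were called) and 5.77 for interstitial SMC (adjusted p = 0.0268, where 1.04% were). The interstitial SMC are 1 sum of 1 line, so that this p rests on the spread of the other clusters and is not a replicated result. In the blocked fit, which called 169 of all genes for pericytes in place of 109, both missed the threshold (adjusted p = 0.0740 and 0.225), as they did with means per cell in limma (1.69, adjusted p = 0.189, and 2.09, adjusted p = 0.124) and with sums of at least 3 cells (adjusted p = 0.153 and 0.0522). The pericyte call was also lost without the Acta2GFP line (5.43, adjusted p = 0.116). Medians per cell in pericytes were 2.15 and 0, and 16 of the 142 pericytes had at least 100 counts. The 6 listed fibroblast genes summed to 1816 counts per 500000 in pericytes, 1976 in interstitial SMC and 565 in vascular SMC. The 5 apex genes summed to 163, 268 and 152 in the same order. The part of fibroblast RNA in these *Cxcl14* levels was not tested.

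The 250 bases before the RefSeq start of *Cxcl14* are shown because it was the member called in cluster 2 under every alternative. They hold 1 match, in capitals, to the interferon-stimulated response element written here as GAAANNGAAA, a motif found on either strand in 2.98% of the same windows of 32851 promoters (GRCm38.p6, chr13:56296552-56296801, minus strand).
Cxcl14: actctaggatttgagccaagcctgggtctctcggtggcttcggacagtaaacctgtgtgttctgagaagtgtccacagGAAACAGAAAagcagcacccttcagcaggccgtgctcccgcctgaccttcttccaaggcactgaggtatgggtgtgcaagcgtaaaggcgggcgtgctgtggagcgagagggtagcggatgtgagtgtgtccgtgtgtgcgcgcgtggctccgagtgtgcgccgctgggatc

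**Figure D4:**
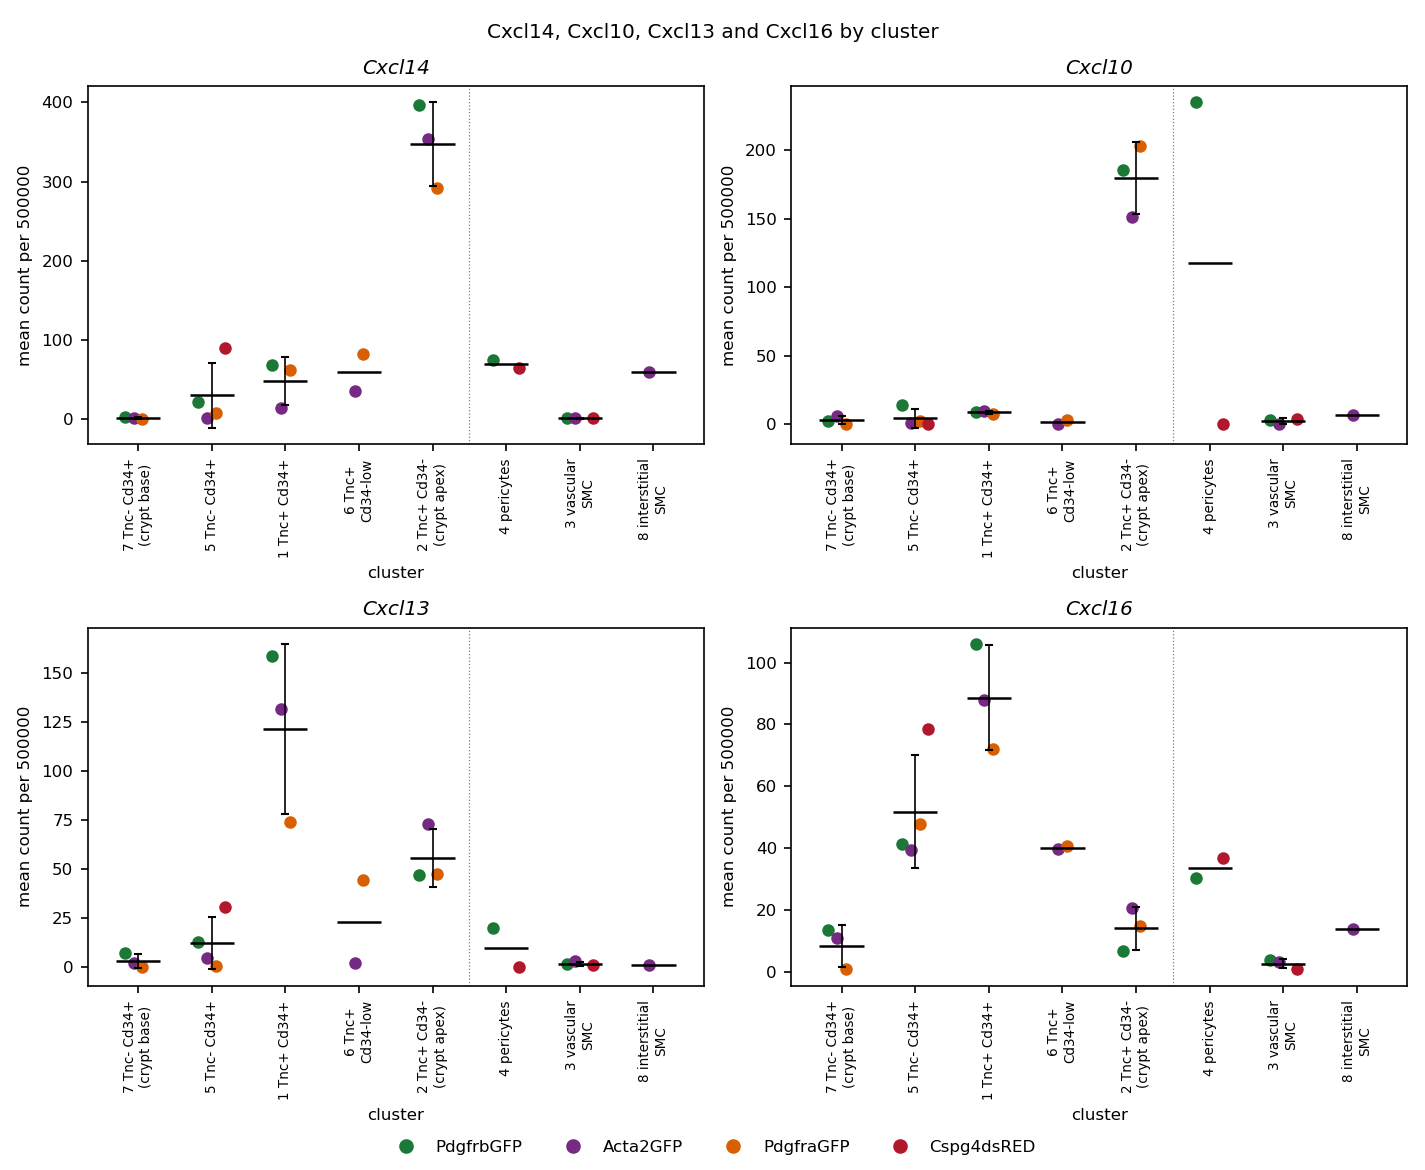
Mean count per 500000 of *Cxcl14*, *Cxcl10*, *Cxcl13* and *Cxcl16* (vertical axes) by cluster (horizontal axes), with points for reporter lines, bars for means and error bars for SD where 3 or more lines contribute. The 3 cluster 2 points of *Cxcl14* lie between 292 and 396 and those of *Cxcl10* between 151 and 203, and for *Cxcl10* the 2 pericyte points lie at 235 and 0.390.

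*Cxcl10* (ENSMUSG00000034855, chr5:92346638-92348889, minus strand) was high in the apex fibroblasts, in a part of the cells. Cluster 2 had 185 counts per 500000 in PdgfrbGFP, 151 in Acta2GFP and 203 in PdgfraGFP, against at most 14.4 in any line of the other fibroblast clusters. Without the highest cell of each line the cluster 2 means were 55.5, 95.5 and 150. On plate 073s, 1 of 10 cells of cluster 2 had a count and the mean was 14.9, whereas it was 77.3 on plate 075s, where cluster 5 had 27.6. By line, the groups did not overlap (cluster 2 against clusters 1, 5 and 7, log2 fold change 4.48, SE 0.861, adjusted p = 0.00312). Without the PdgfraGFP line the log2 fold change was 3.79 and missed the threshold (adjusted p = 0.0580). Medians over the cells of cluster 2 were 0, 0 and 2.25, and 19 of 131 cells (14.5%) had at least 100 counts. Summed counts over summed library sizes gave 98.1 for cluster 2, against a mean per cell of 180. By summed counts, medians and the share of cells with a count, pericytes and not cluster 2 had the most *Cxcl10*. *Cxcl2*, *Cxcl10* and *Cxcl14* were the 3 of 10 members called in this comparison, where 7.51% of all genes were called. The related ligand *Cxcl11*, which shares the receptor *Cxcr3*, was also higher in cluster 2 (log2 fold change 6.74, adjusted p = 0.00176), on 636 counts in 44 cells in all. Only 2 of these cells had at least 100 *Cxcl11* counts, cluster 2 had 0, 1.47 and 5.73 counts per 500000 in PdgfrbGFP, Acta2GFP and PdgfraGFP, and without the 2 highest cells the mean of the PdgfraGFP fibroblasts went from 1.45 to 0.0784. Of the 16 immediate early genes listed, which rise during tissue dissociation, 14 were higher in cluster 2 and none was lower, with a median log2 fold change of 2.01, and their part in the *Cxcl10* level was not tested.

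In pericytes, *Cxcl9* (ENSMUSG00000029417, chr5:92321347-92328079, minus strand) and *Cxcl10* depended on the line. PdgfrbGFP pericytes had 235 counts per 500000 of *Cxcl10* and 61.3 of *Cxcl9*, and Cspg4dsRED pericytes 0.390 and 0.386. The 2 plates that held most PdgfrbGFP pericytes were alike, with 304 and 202 of *Cxcl10* and 58.8 and 74.2 of *Cxcl9* (35.3 and 43.1 without the highest cell of each). Neither gene passed the test against vascular SMC (*Cxcl9* adjusted p = 0.168, *Cxcl10* adjusted p = 0.176). Leaving out either line leaves 1 pericyte sum, which is assumed to vary like the sums of the other clusters, so that the calls of those fits rest on 1 line and are not replicated. The log2 fold changes of *Cxcl9* and *Cxcl10* were 8.09 and 7.07 without the Cspg4dsRED line, whose pericytes came from 1 plate, and that of *Cxcl10* was -0.88 without the PdgfrbGFP line.

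The mean of log2(count per 500000 + 1) over the 12 interferon response genes listed, among them *Irf1* and *Gbp2*, was 3.85 and 3.57 in the PdgfrbGFP pericytes on these 2 plates and 0.917 in the Cspg4dsRED pericytes. In all other clusters and plates it lay between 0.682 and 2.78. Median depth on these plates was 185578.5 and 650920 counts per cell, and 113721 on the Cspg4dsRED plate. Of the 104 PdgfrbGFP pericytes, 38 had a *Cxcl9* count, and 34 of these (89.5%) also had a *Cxcl10* count, against 40 of the 66 without *Cxcl9* (60.6%), at median depths of 357010 and 224336 counts. The 5 endothelial genes summed to 35.5 counts per 500000 and the 7 immune genes to 5.02 in the PdgfrbGFP pericytes, and to 81.2 and 30.1 in the Cspg4dsRED pericytes, and the part of such RNA in the levels of *Cxcl9* and *Cxcl10* was not tested. The line and plate cannot be told apart for these cells. On the PdgfrbGFP plates with median depths of 185578.5 and 650920, pericytes had 304 and 202 counts per 500000 of *Cxcl10*. Cspg4dsRED pericytes had 0.390, and the part of depth was not tested. Exons of *Cxcl10* overlap those of *Art3* on the other strand, and *Art3* had 412 counts per 500000 in the PdgfrbGFP and 249 in the Cspg4dsRED pericytes. Counts of the pair cannot be told apart if counting ignored strand, and its part in the *Cxcl10* values was not tested.

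Outside the pericytes, *Cxcl9* was low. On the 2 PdgfrbGFP plates with most pericytes it was found in 21.1% to 58.3% of the cells of clusters 5 and 1, at means of 0.563 to 2.00 counts per 500000, against 0.901% to 3.64% on plates 073s and 075s. In fibroblasts it was at 0 in Cspg4dsRED, at 0.0610 counts per 500000 in Acta2GFP, at 0.168 in PdgfrbGFP and at 5.27 in PdgfraGFP, where it was 0.788 without the 2 highest of the 225 cells. On the deeper of the 2 PdgfraGFP plates, the 25 cells of cluster 2 had a mean of 33.3 and the 24 cells of cluster 1 one of 14.0, while on the other plate these clusters had 0 and 0.145. Most of both means came from 1 cell each, without which they were 6.53 and 0.0803. The promoter windows of *Cxcl9* and *Cxcl10* are shown because the genes were high in the same pericytes. That of *Cxcl10* holds, in capitals, 1 GAAANNGAAA, 2 matches to a kappaB motif written as GGGNNNTTCC (4.65% of all promoters) and 1 to the AP-1 motif TGANTCA (6.75%), and that of *Cxcl9* holds none of these letters. The windows lie at chr5:92328080-92328329, minus strand, and chr5:92348890-92349139, minus strand. A match is a description of letters and not of a bound site.
Cxcl9: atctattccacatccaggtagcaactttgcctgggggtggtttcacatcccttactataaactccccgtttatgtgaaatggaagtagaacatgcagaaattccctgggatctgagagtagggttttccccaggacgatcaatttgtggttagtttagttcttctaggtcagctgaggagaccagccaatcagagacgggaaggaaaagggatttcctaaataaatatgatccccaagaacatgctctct
Cxcl10: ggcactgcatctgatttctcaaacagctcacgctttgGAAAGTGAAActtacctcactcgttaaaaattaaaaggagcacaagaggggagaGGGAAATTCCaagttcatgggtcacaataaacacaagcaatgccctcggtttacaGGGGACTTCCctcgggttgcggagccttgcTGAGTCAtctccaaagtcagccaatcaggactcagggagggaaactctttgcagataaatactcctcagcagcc

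*Cxcl1* (ENSMUSG00000029380, chr5:90891241-90893115, plus strand), a neutrophil attractant that responds quickly to tissue injury, varied widely between plates and missed the threshold in all 7 comparisons. Cluster means ranged from 0.752 in interstitial SMC to 22.8 in cluster 2, and the ranges of all neighbours in the order overlapped. Fibroblasts had 12.6 to 22.5 over 4 lines and mural cells 12.0 to 15.5 over 3 lines. Within the PdgfrbGFP line, however, cells of cluster 5 had 3.30 counts per 500000 on plate 073s, 59.7 on plate 075s, and 0.395 and 10.1 on the 2 plates that also held pericytes. A *Cxcl1* count was found in 22.2%, 80.0%, 5.56% and 18.2% of these cells. In cluster 1, 13.5% of cells on plate 073s and 77.7% on plate 075s had one. In cluster 7 the share was also higher on plate 075s (78.6% against 36.1%), whereas the mean was 17.7 against 21.0, and 10.9 against 7.83 without the highest cell of each plate. The 2 Acta2GFP plates also differed, with a *Cxcl1* count in 49.4% against 13.2% of cells in cluster 7, 43.5% against 2.78% in cluster 5 and 37.9% against 5.75% in cluster 1, and with a mean log2 level of the 16 immediate early genes of 6.69 against 4.55 in cluster 5. Median depth was alike on plates 073s and 075s, at 290372 and 288506.5 counts per cell. On the 2 Acta2GFP plates it was 267470.5 and 117799, in the order of these shares, and the part of depth in them was not tested.

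The immediate early score, the mean of log2(count per 500000 + 1) over the 16 genes listed, was 7.69 to 9.15 on plate 075s and 4.02 to 5.97 on plate 073s over clusters 7, 5, 1 and 2. Across the PdgfrbGFP cells of these clusters, *Cxcl1* and the score had a Spearman's rho of 0.52 in cluster 7 (76 cells), 0.57 in cluster 5 (220 cells), 0.54 in cluster 1 (236 cells) and 0.64 in cluster 2 (30 cells), as a description over cells that share 4 plates. In the other lines and the mural clusters rho lay between 0.0023 and 0.34. *Cxcl10* was also found more often on plate 075s, in 58.5% to 69.1% of the cells of these clusters against 1.23% to 13.9% on plate 073s. The 2 pericyte plates of the line also had high *Cxcl10* shares in clusters 5 and 1 (42.1% to 90.9%), without the immediate early score of plate 075s (3.79 to 4.89). Ranks of cells within clusters were also compared with wells of the same plate row or column. On plate 075s this rho was 0.659 for *Cxcl10* and 0.541 for *Cxcl1*, against 0.117 and 0.293 on plate 073s. On the 2 pericyte plates it was 0.498 and 0.586 for *Cxcl10*, and 0.0253 and -0.0117 for *Cxcl1*. The part of neighbouring wells in these shares was not tested. When plate 075s was left out, the members called between fibroblasts and mural cells and in cluster 2 against clusters 1, 5 and 7 were those called with all plates, *Cx3cl1* joined across the fibroblast clusters (adjusted p = 0.0340), *Cxcl14* joined in cluster 7 against cluster 1 (-5.49, adjusted p = 0.0485) and *Cxcl16* in pericytes (5.83, adjusted p = 0.0259).

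**Figure D5:**
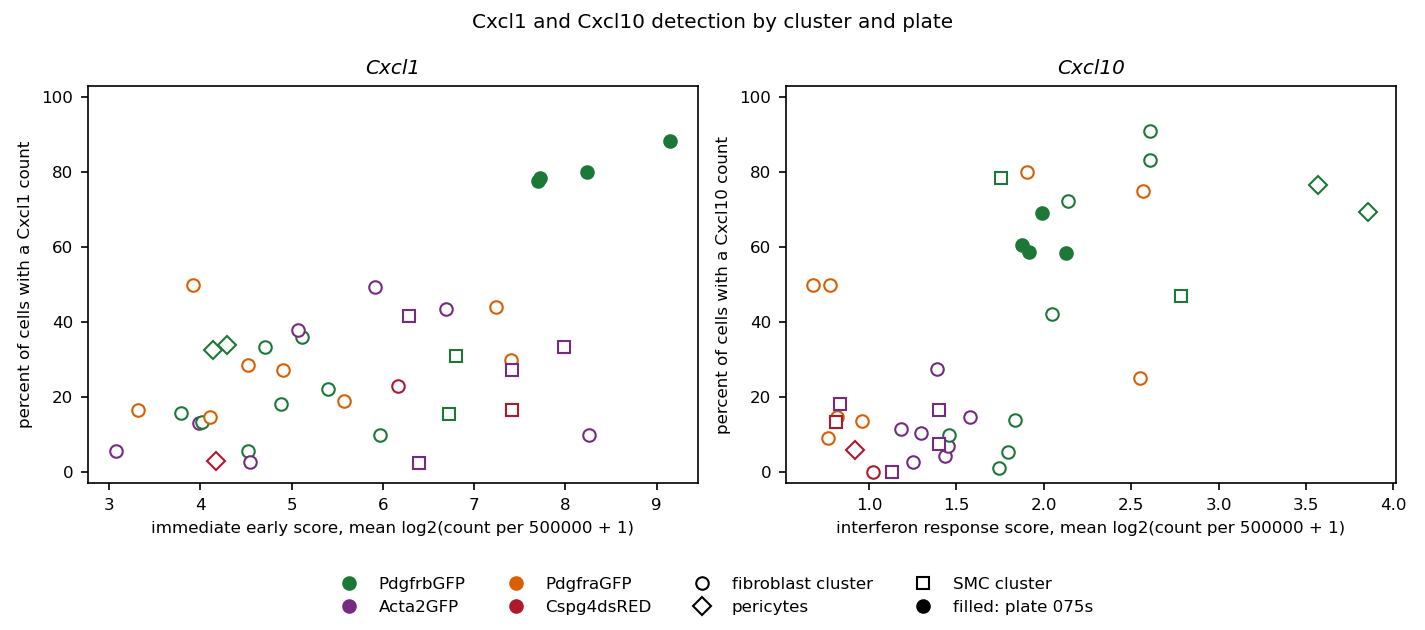
Percent of cells with a *Cxcl1* or *Cxcl10* count (vertical axes) against the mean immediate early or interferon response score (horizontal axes), for each cluster and plate with at least 10 cells. Color is the reporter line, shape the class and filled points are plate 075s, whose 4 fibroblast clusters have the highest *Cxcl1* shares (77.7% to 88.2%).

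The promoter window of *Cxcl1* is shown because of this spread between plates. It holds 3 matches to GGGNNNTTCC, in capitals: 1 on the minus strand at 89 to 80 bases before the start, and an overlapping pair, 1 on each strand, at 71 to 61 bases before it. It lies at chr5:90890995-90891244, plus strand. The window of *Cxcl2* also holds 3 such matches, and those of *Cxcl12*, *Cxcl13* and *Cx3cl1* hold none of the 3 motifs. Promoter windows were found for 8 of the 10 members.
Cxcl1: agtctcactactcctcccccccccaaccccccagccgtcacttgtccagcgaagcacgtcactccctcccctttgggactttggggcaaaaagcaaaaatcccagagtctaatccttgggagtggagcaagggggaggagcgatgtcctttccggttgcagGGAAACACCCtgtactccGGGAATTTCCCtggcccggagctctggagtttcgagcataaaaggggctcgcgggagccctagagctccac

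*Cxcl2* (ENSMUSG00000058427, chr5:90903871-90905938, plus strand) and *Cxcl5* (ENSMUSG00000029371, chr5:90759360-90761624, plus strand), which like *Cxcl1* attract neutrophils, were rare. *Cxcl2* was called in cluster 2 (log2 fold change 6.25, adjusted p = 0.0171), but 175 of its 188 counts (93.1%) came from 1 PdgfraGFP cell of that cluster. The cluster 2 means were 0, 0 and 4.12 in PdgfrbGFP, Acta2GFP and PdgfraGFP, and the call was lost in the blocked fit (adjusted p = 0.148), without the Acta2GFP line (adjusted p = 0.121) and with means per cell in limma (0.02, adjusted p = 0.852). *Cxcl5* was highest in cluster 1, with 2.07 counts per 500000 in PdgfrbGFP, 9.79 in Acta2GFP and 4.30 in PdgfraGFP, and every line of the other fibroblast clusters lay below these. Without the highest cell of each line these means were 1.34, 3.33 and 2.11. Plates of cluster 1 ran from 0.0644 to 19.5 and overlapped with those of cluster 7 (0 to 1.72). As deposited, more cells of cluster 7 had a count (8.97% against 6.83%), at median depths of 311916 and 229006 counts per cell. After thinning to equal depth the order was reversed, with a count in 0.455% of cells of cluster 7 and 3.74% of cluster 1. Only 3 of 483 cells of cluster 1 had at least 100 *Cxcl5* counts, and its 10 highest cells held 89.5% of all its counts.

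*Cx3cl1* (ENSMUSG00000031778, chr8:94772009-94782427, plus strand), a membrane-bound adhesive ligand for *Cx3cr1* on monocytes, was low and uneven. Cluster 1 had 18.0 counts per 500000 in PdgfrbGFP, 23.3 in Acta2GFP and 0.405 in PdgfraGFP. Pericytes had 27.2 in Cspg4dsRED and 0.690 in PdgfrbGFP, but 1 of the 33 Cspg4dsRED pericytes had 803, and the mean of the others was 2.94. The ranges of all neighbouring clusters overlapped. In the cells of cluster 1, 24.8% had a count, 11.9% after thinning and 2.90% at least 100 counts. The proteases that shed *Cx3cl1* and *Cxcl16*, *Adam10* and *Adam17*, were found in every cluster, at 18.0 to 50.1 and 9.18 to 66.5 counts per 500000, whereas *Dpp4*, which trims several chemokines at the amino end, had 37.3 ± 3.60 in cluster 7, 5.14 ± 4.93 in cluster 5 and at most 0.731 elsewhere.

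Among other genes of the pathway, the proteoglycans *Sdc1* and *Sdc4* and the NF-kB regulators *Nfkbia* and *Nfkbiz* were higher in cluster 2. Of the 10 genes for release, cleavage and presentation, 4 were called there against clusters 1, 5 and 7 (7.51% of all genes), and the list had a median log2 fold change of -0.44 against 0.02 over all genes. The proteoglycan cores *Sdc4* (log2 fold change 1.74, adjusted p = 1.51e-05) and *Sdc1* (2.99, 0.0326) were higher, and *Dpp4* (-5.15, 0.0361) and the heparan sulfate sulfotransferase *Hs3st1* (-4.85, 0.00937) were lower. In fibroblasts against mural cells 3 of 10 were called and higher (6.57% of all genes were called), which were *Dpp4* (5.80, adjusted p = 0.0159), *Hs3st1* (5.24, 0.000419) and the heparan sulfate polymerase *Ext1* (2.75, 0.00180). Of the 11 tested genes of the NF-kB loop, which drives many chemokines, *Nfkbiz* (3.24, adjusted p = 0.00261) and *Nfkbia* (1.66, 0.000117) were higher in cluster 2 and *Ccl7* (-4.92, 0.00241) was lower. In the same comparison 14 of the 16 immediate early genes were higher, and their part in these differences was not tested. Of the 12 interferon response genes, *Irf1* was the 1 called in cluster 2 (1.02, adjusted p = 0.0384), and the list had a median log2 fold change of -0.52. In pericytes against vascular SMC the log2 fold changes of these 12 genes ran from 0.81 (*Irf9*) to 4.45 (*Ifit3*), with a median of 2.28 against -0.03 over all genes and adjusted p of 0.267 to 0.736 by edgeR.

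For 8 of the 10 members, which reached a mean of 20 counts per 500000 in a cluster of a line, the genes most like them over the 21 means were sought among 10312 genes by Pearson's r of log2(mean + 1). The highest r was 0.93 for *Cxcl16* with *Slco2b1* and 0.91 for *Cxcl14* with *Snai1* and with *Ctsc*. *Cxcl12* had 0.89 with *Unc5a* and 0.85 with *Tmem200a*, *Cxcl10* 0.88 with *Gramd1b*, *Cxcl13* 0.87 with *Igfbp3* and *Cxcl9* 0.84 with *Nlrc5*, a gene of the interferon response. *Cxcl1* (0.80, *Nsun5*) and *Cx3cl1* (0.68, *Yy2*) had weaker matches. The means share lines, plates and clusters, so these values describe likeness of level and nothing further.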

How the data were processed

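SmartSeq2 libraries of 1646 colon cells were analysed. According to the study's methods the authors mapped reads to GRCm38 with TopHat2 and counted them per gene with featureCounts, and the submitters' processing notes also name Bowtie2 and Subread. They deposited raw counts per gene and cell, with no normalization. The 92 ERCC spike-in RNAs, 1.36% of counts, were left out. Depth, 47598 to 1494292 gene counts per cell, limits low values, and Clopper-Pearson intervals cover counting error only.

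Groups are the clusters and lines of the labels. Sums of counts over the cells of a cluster or class were made for every line that had 10 or more, scaled with TMM, filtered with filterByExpr and tested over all genes with edgeR 4.0.16 (quasi-likelihood F test, two-sided, Benjamini-Hochberg, threshold 0.05). The study's clusters rest on these very counts, so tests between them are not independent of the grouping. The 10 members and all gene lists were chosen with earlier results of these data known, and the gene lists are described by counts. The named genes are the members, at most 6 called genes of each list, and the 3 genes most like each member. Cells of a line share plates, which pairs its sums. Their deviations correlated with r of 0.152, 0.166 and 0.175 between fibroblasts and mural cells, 0.0207 to 0.223 between fibroblast clusters, and 0.150 and 0.157 between pericytes and vascular SMC. Alternatives were DESeq2 1.42.0, no filter, a line block, at least 3 cells, sums per plate, limma 3.58.1 on mean log2(count per 500000 + 1) over cells, each line left out and, chosen after seeing the data, plate 075s left out. Means without the highest cells were also added after seeing the data. Tests were checked on simulated counts. Positions are from GENCODE vM21 and promoters from RefSeq. R 4.3.3, Python 3.11.15, numpy 2.4.6, pandas 2.3.3, scipy 1.17.1 and matplotlib 3.10.9 were used.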

Additional observations from a re-analysis of the deposited data

Results flagged for a closer look

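Of 50 groups of 4 lines or plates, 8 held a value far from the others by the gap over the whole range. The groups share cells, and for the 3 *Cxcl2* values set against plates at 0 the gap is fixed, so the usual rate of about 1 in 20 by chance does not apply to this count. Plate 075s stood apart in *Cxcl1*, with 36.0 counts per 500000 in the PdgfrbGFP fibroblasts against 5.36 to 9.51 on the other 3 plates, and with 59.7 in cluster 5 against 0.395 to 10.1. It was also the only plate of that line with *Cxcl2* counts in these cells, at 0.0577 over all fibroblasts, 0.0391 in cluster 5 and 0.0913 in cluster 1, where the other plates had 0. Over lines, the 13 Cspg4dsRED cells of cluster 5 had 0.338 of *Cxcl2* against 0 to 0.0195, and 757 of *Cxcl12* against 341 to 379. PdgfraGFP fibroblasts had 5.27 of *Cxcl9* against 0 to 0.168 in the other lines, and 0.788 without its 2 highest cells.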

How the results depend on the processing

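In fibroblasts against mural cells 2953 genes were called by DESeq2, 590 with the line as a block and 2515 with sums per plate. Across the 5 fibroblast clusters DESeq2 called 3710 genes, and sums per plate 3324 genes and 8 members. In cluster 2 DESeq2 called 2353 genes. In cluster 7 against cluster 1, DESeq2 called 778 genes and 5 members, the block 276 genes, and sums per plate 561 genes and 4 members. In cluster 6 against cluster 2, DESeq2 called 2266 genes and 2 members, no filter 2 members, sums of at least 3 cells 252 genes, sums per plate 763 genes, and limma 645 genes and 3 members. In pericytes, DESeq2 called 966 genes and 4 members, no filter 474 genes and 4 members, the block 169 genes and 0 members, sums of at least 3 cells 0 members, sums per plate 318 genes and 4 members, limma 71 genes and 0 members, and 2 members were called without plate 075s. In interstitial SMC, DESeq2 called 959 genes and 2 members, no filter 473 genes, the block and sums of at least 3 cells 0 members, sums per plate 508 genes, and limma 344 genes and 0 members. By medians over cells, 3 of 10 members kept the cluster that led by the mean, and by summed counts 7 did. *Cxcl2*, *Cxcl5*, *Cxcl9* and *Cx3cl1* had no leading cluster by the median. By the share of cells with a count after thinning, another measure than the mean, 7 kept it. By the share as deposited, *Cxcl9*, *Cxcl13*, *Cxcl14* and *Cxcl16* did. Leaving out 1 line at a time, members called ranged from 2 to 2 and genes from 287 to 1136 in fibroblasts against mural cells, 1 to 6 and 313 to 1853 across fibroblast clusters, 1 to 3 and 541 to 1549 in cluster 2, 0 to 3 and 15 to 202 in cluster 7, 0 to 2 and 25 to 653 in cluster 6, 0 to 3 and 44 to 417 in pericytes (with 1 pericyte sum without PdgfrbGFP or Cspg4dsRED), and 1 to 1 and 170 to 722 in interstitial SMC. *Cxcl9* in cluster 2 against clusters 1, 5 and 7 ranged over the lines left out from -5.78 (without PdgfraGFP) to 5.50, and *Cxcl10* in pericytes from -0.88 (without PdgfrbGFP) to 7.07. Beside the changes given with each result, the replicate block changed no member's call. The fit of interstitial SMC without the Acta2GFP line was not run, since no other line held enough of these cells. The causes were not tested. The groups held 1 to 4 lines and the counts carried no molecular identifiers, which limits the precision of each value.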
